A study of Mus musculus with 24 samples.

Results

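The 10 genes described here, Dcn, Lum, Ogn, Igf2, Igfbp2, Slc6a13, Slc22a6, Aldh1a2, Islr and Fmod, are non-collagen genes that mark the fibroblasts of the leptomeninges, the thin inner coverings of the brain. They were found by matching the Ensembl identifiers of the count tables to these symbols, and all 10 were present among 33364 genes. All 10 passed the filter on low counts in every comparison, beside 18078 genes that passed it over the 24 libraries together. The libraries are bulk RNA-seq of 2 cortical regions, the anterior cingulate (ACC) and the medial prefrontal cortex (mPFC), from female and male C57BL/6 mice (C57BL/6J in the study's methods), labelled as 3 months old. The mice had a spared nerve injury (SNI), in which the common peroneal and sural branches of the left sciatic nerve were tied and cut and the tibial branch was spared, or a sham operation that exposed the nerve only, and tissue was taken 2 weeks later. This gave 8 groups: female sham mPFC, female SNI mPFC, male sham mPFC, male SNI mPFC, female sham ACC, female SNI ACC, male sham ACC and male SNI ACC. Each group had 3 libraries, and each library was made from the pooled punches of several mice, so that differences between single animals were not measured. The libraries held 23853845 to 32864391 counts (median 26727282), at which 3 counts correspond to 0.0913 to 0.126 CPM (counts relative to the scaled size of each library).

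Leptomeningeal fibroblasts form the pia and arachnoid, lay down the outer basement membrane of the brain, and secrete growth factors and retinoic acid that act on the cortex beneath. They also carry transporters that clear GABA, taurine and organic anions between cerebrospinal fluid and blood. The members cover these roles. Dcn (decorin), Lum (lumican), Ogn (osteoglycin or mimecan) and Fmod (fibromodulin) encode small leucine-rich proteoglycans that bind collagen fibrils. Igf2 encodes insulin-like growth factor 2, an imprinted gene expressed mainly from the paternal allele in most tissues, and Igfbp2 encodes a binding protein that sequesters IGFs. Slc6a13 encodes the GABA and taurine transporter GAT2, Slc22a6 the organic anion transporter OAT1, and Aldh1a2 the retinaldehyde dehydrogenase that makes retinoic acid. Islr (Meflin) encodes a leucine-rich repeat protein of mesenchymal cells.

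The members are spread over 7 chromosomes of GRCm38. Among the proteoglycans, Dcn (chr10:97479609-97518143, plus strand) and Lum (chr10:97565128-97572703, plus) are neighbours on chromosome 10 together with Kera and Epyc. Ogn (chr13:49608046-49624501, plus) lies beside Omd, Aspn and Ecm2, inside the opposite-strand gene Cenpp with which it shares 0 exonic bases. Fmod (chr1:134037254-134048277, plus) lies beside Prelp and Optc. Igf2 (chr7:142650766-142666816, minus) shares 3596 of its 5723 exonic bases with the same-strand gene Gm49394, which had 0 to 8 counts per library, and 98 with the antisense Igf2os, which had 0 to 11. How reads in shared exons were counted is not given in the sources used here, so the level of Igf2 may be understated. Islr (chr9:58156268-58204306, minus) shares 181 exonic bases with Islr2 on the same strand, which had 1744 to 3804 counts per library against 245 to 569 for Islr. The others are Igfbp2 (chr1:72824503-72852474, plus), Slc6a13 (chr6:121300227-121337733, plus), Slc22a6 (chr19:8618039-8628299, plus) and Aldh1a2 (chr9:71215789-71296243, plus).

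The promoters of 4 members are shown because these genes carry the contrast of the report: Ogn had the largest difference between regions, Slc22a6 and Aldh1a2 followed the same direction, and Slc6a13 did not. Each is the RefSeq sequence of GRCm38.p6 from 250 bases before to 50 bases after an annotated start site, 5′ to 3′ on the plus strand, in lower case, with matches to the searched motifs in capitals.
Ogn, chr13:49607765-49608064: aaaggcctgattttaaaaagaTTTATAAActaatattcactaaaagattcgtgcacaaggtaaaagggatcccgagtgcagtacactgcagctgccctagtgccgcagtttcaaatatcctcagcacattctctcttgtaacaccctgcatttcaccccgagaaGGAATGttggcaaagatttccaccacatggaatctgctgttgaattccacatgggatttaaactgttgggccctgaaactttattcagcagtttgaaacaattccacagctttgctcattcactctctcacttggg
Slc22a6, chr19:8617746-8618045: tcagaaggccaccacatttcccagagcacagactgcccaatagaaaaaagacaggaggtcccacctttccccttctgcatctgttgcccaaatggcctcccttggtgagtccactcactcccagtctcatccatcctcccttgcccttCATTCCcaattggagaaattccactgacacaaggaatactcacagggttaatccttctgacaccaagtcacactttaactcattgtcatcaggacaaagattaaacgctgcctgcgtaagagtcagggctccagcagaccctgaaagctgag
Aldh1a2, chr9:71215539-71215838: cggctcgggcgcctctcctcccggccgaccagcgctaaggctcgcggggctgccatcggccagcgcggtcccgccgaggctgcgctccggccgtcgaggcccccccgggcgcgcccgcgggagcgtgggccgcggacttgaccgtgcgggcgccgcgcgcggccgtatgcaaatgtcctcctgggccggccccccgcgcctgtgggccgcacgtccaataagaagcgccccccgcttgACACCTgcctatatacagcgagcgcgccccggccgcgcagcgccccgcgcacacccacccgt
Slc6a13, chr6:121300038-121300337: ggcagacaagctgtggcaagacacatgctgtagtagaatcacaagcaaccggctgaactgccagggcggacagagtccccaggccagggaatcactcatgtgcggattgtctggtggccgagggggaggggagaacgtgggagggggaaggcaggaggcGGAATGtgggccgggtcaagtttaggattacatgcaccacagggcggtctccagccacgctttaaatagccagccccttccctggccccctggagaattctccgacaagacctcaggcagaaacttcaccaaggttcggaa
The motifs searched on both strands were TATAAA for the TATA box, TGTTTA for forkhead sites, AGGTGT for T-box sites and GGAATG for TEAD sites. The end of the forkhead letters can overlap the reverse complement of the TATA letters, but no forkhead match lies in the 4 windows shown. Forkhead and T-box factors were included because Foxc1, Foxc2 and Tbx18 are transcription factors of meningeal fibroblasts. TATAAA was held by 13.6% of 32851 mouse promoters of the same length, TGTTTA by 13.4%, AGGTGT by 13.7% and GGAATG by 14.7%. Ogn, Slc22a6 and Slc6a13 had 1 match each to GGAATG, at -86, -102 and -91 from the start site, and Aldh1a2 had 1 match to AGGTGT at -12. All 4 windows shown thus hold a match, whereas 6 of the 14 promoter entries of the members hold none. Of the 14 entries, 6 held GGAATG and 1 held each of the other motifs, and no entry of Fmod or Islr held any of the 4. The TATA letters in Ogn match on both strands within 1 stretch. Promoter entries existed for 8 of the 10 members. Such matches are a description of the letters in these windows and occur in many other promoters.

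The presence of leptomeningeal RNA was checked with 31 further leptomeningeal fibroblast genes. The anion carrier Slc13a4 had 173 to 660 counts per library and the matrix gene Efemp1 131 to 344, whereas the transcription factor Foxc2 had 14 to 114. The summed level of the 31 genes was 264 to 391 CPM in the 12 mPFC libraries and 321 to 487 CPM in the 12 ACC libraries. For comparison, the summed level of 10 cortical excitatory neuron markers was 6202 to 7540 CPM over the same libraries. The sources used here do not say whether the meninges were removed before punching. In bulk tissue, fewer cells of a type and less RNA per cell cannot be told apart, and this holds for every member below.

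1 library stood apart in choroid plexus RNA, and 4 others held traces of choroid plexus or liver RNA. In female sham ACC replicate 1, the 12 choroid plexus markers summed to 1059 CPM, against 18.1 and 21.3 CPM in the other two libraries of that group, and Ttr (transthyretin, the most abundant choroid plexus transcript) reached 869 CPM. Male SNI mPFC replicate 2 had 99.5 CPM of the same markers, and the remaining libraries had 13.9 to 22.0 CPM. Markers of liver cells summed to 15.2 and 3.88 CPM in male sham ACC replicates 1 and 2 and to 47.3 CPM in male SNI ACC replicate 1, and to at most 0.372 CPM elsewhere. The keratinocyte gene Krt5, with a median of 0 CPM over the libraries, reached 129 counts (4.75 CPM). The highest summed level of 6 keratinocyte markers, 25.2 CPM, was in a female SNI mPFC library. The choroid plexus itself expresses Igf2 and Igfbp2, and female sham ACC replicate 1 had the highest value of the 24 libraries for 5 of the 10 members. The members' counts for SNI in the ACC are given below with and without this library, and between regions 8 members were called lower without it in female sham (10.9% of all genes in that fit) and 8 over the 4 pairs of groups (23.5%), as with it. Each of the 4 count tables holds 1 sex and 1 region with sham and SNI side by side, so that a difference in handling between tables cannot be told apart from region or sex. Over all genes, other libraries stood farther from their group, by a chi-square per gene between pairs of libraries. Male sham ACC replicate 3 had 18.1 and 15.9, against 2.59 between replicates 1 and 2. Female sham mPFC replicate 3 had 12.8 and 12.5, against 4.08 between replicates 1 and 2. Female sham ACC replicate 1 had 6.81 and 5.78, against 4.05 between replicates 2 and 3.

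The members differed in level. Per kilobase of exon, the median over the 24 libraries was highest for Igfbp2, at 14.8 CPM per kb (12.8 to 28.2), followed by Igf2 at 7.15 (4.68 to 18.3). Islr stood at 4.66 and Fmod at 4.54 CPM per kb, Aldh1a2 at 3.36, Slc6a13 at 2.97, Ogn at 2.20, Slc22a6 at 1.67, Dcn at 1.26 and Lum at 0.935. The ranges over libraries of all neighbours in this order overlapped. The thinnest data were those of Lum and Ogn, whose lowest counts in a library were 33 and 31.

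**Figure D1:**
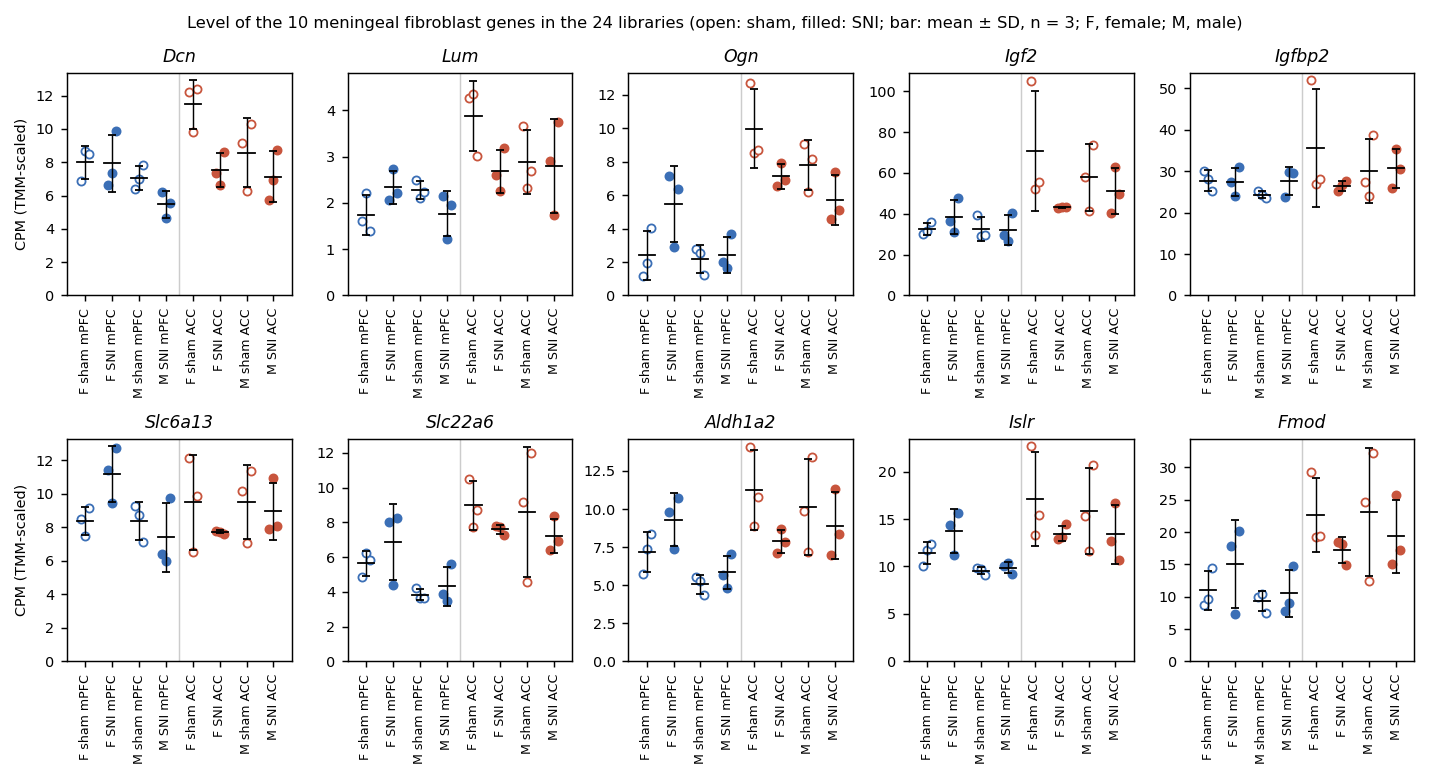
Level of each member in every library (CPM on the y axis, scaled by the trimmed mean of M-values), by group on the x axis, with blue for mPFC, red for ACC, open circles for sham and filled circles for SNI. Black bars are the mean ± SD of the 3 libraries in a group. Ogn and Fmod separate the regions most clearly, and Igfbp2 and Slc6a13 hardly do.

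The first question was whether the members differ between the 2 cortical regions. They did, and in one direction: averaged over the 4 pairs of groups, 8 of the 10 members were lower in the mPFC than in the ACC (edgeR quasi-likelihood F-test, FDR under 0.1). The 2 that did not pass were Igfbp2 and Slc6a13. Over all genes tested, 24.7% were called lower in the mPFC in the same comparison. The median log2 fold change of the members was -0.54, against 0.0034 for all genes. The comparison was also fitted without the 5 libraries that held choroid plexus or liver RNA, an alternative added after the data were seen, and 9 members were then called lower, the 9th being Igfbp2, against 18.2% of all genes in that fit.

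Ogn, a proteoglycan that regulates collagen fibril assembly, showed the largest difference. Its level in the ACC was 12.7, 8.51 and 8.72 CPM in female sham, 6.53, 7.94 and 6.89 CPM in female SNI, 9.04, 6.17 and 8.19 CPM in male sham, and 4.60, 7.38 and 5.12 CPM in male SNI. In the mPFC it was 1.18, 1.96 and 4.04 CPM in female sham, 7.16, 2.91 and 6.34 CPM in female SNI, 2.80, 2.55 and 1.23 CPM in male sham, and 1.99, 1.65 and 3.67 CPM in male SNI. Every ACC library except those of female SNI thus lay above every mPFC library of its own sex and treatment, and only female SNI mPFC reached the ACC range. Over all libraries of a region the mean was 7.65 ± 2.12 CPM in the ACC and 3.12 ± 1.92 CPM in the mPFC (SD, n = 12 each). The log2 fold change of Ogn (mPFC minus ACC) was -2.06 ± 0.31 (SE) in female sham (adjusted p = 0.0016), -1.82 ± 0.24 in male sham (adjusted p = 0.00067) and -1.24 ± 0.25 in male SNI (adjusted p = 0.0053). In female SNI it was -0.38 ± 0.23 and did not pass (adjusted p = 0.28). The mean over the 4 pairs was -1.38 ± 0.17 (adjusted p = 6.6e-07).

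Fmod, which also binds type I collagen, came next. It stood at 29.2, 19.2 and 19.4 CPM in female sham ACC and at 24.7, 12.5 and 32.2 CPM in male sham ACC. The corresponding mPFC libraries had 8.80, 9.66 and 14.4 CPM in females and 7.50 to 10.4 CPM in males (mean 9.31 ± 1.58, SD, n = 3), with no overlap in either sex. The log2 fold change was -1.04 ± 0.19 in female sham, -1.30 ± 0.27 in male sham, -0.90 ± 0.21 in male SNI and -0.19 ± 0.25 in female SNI, and the first 3 passed (adjusted p = 0.0046, 0.0097 and 0.013). After SNI, female mPFC spread widely, with 17.8, 7.37 and 20.1 CPM against 18.5, 18.1 and 14.9 CPM in female SNI ACC.

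The other two proteoglycans, Lum and Dcn, were called lower in the mPFC in female sham and not in the other 3 pairs. Lum was at 4.27, 4.36 and 3.02 CPM in female sham ACC and at 1.60, 2.22 and 1.40 CPM in female sham mPFC, a log2 fold change of -1.14 ± 0.22 (adjusted p = 0.0059). Dcn was at 12.2, 9.80 and 12.4 CPM in female sham ACC and at 6.86, 8.66 and 8.50 CPM in female sham mPFC, a log2 fold change of -0.51 ± 0.13 (adjusted p = 0.017). In male sham the values were -0.33 ± 0.20 for Lum and -0.27 ± 0.17 for Dcn, in male SNI -0.66 ± 0.27 and -0.38 ± 0.16, and in female SNI -0.18 ± 0.19 and 0.09 ± 0.15, none past the threshold. In the male pairs the absence of a call depended on single libraries. Dcn passed in male sham without ACC replicate 2 and in male SNI without ACC replicate 1. Lum passed in male SNI without ACC replicate 2. In female sham both stayed called when each library was left out in turn. The difference between the sexes in the regional effect of Lum in sham mice was itself tested and was not called (-0.81 ± 0.31, adjusted p = 0.63).

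Of the IGF pair, Igf2 was called lower in the mPFC in 3 of the 4 pairs, and its binding protein Igfbp2 in none of them. Igf2 stood at 105, 52.2 and 55.8 CPM in female sham ACC, 43.0, 43.4 and 43.3 CPM in female SNI ACC, 58.2, 41.3 and 73.9 CPM in male sham ACC, and 40.4, 63.0 and 49.8 CPM in male SNI ACC. In the mPFC it was 30.1, 31.5 and 35.8 CPM in female sham, 36.6, 31.1 and 47.6 CPM in female SNI, 39.6, 28.9 and 29.5 CPM in male sham, and 29.4, 26.8 and 40.6 CPM in male SNI. The regions did not overlap in female sham or male sham, while in male SNI the highest mPFC library (40.6 CPM) met the lowest ACC library (40.4 CPM). The log2 fold change of Igf2 was -1.12 ± 0.21 in female sham (adjusted p = 0.0054), -0.82 ± 0.18 in male sham (adjusted p = 0.015), -0.67 ± 0.15 in male SNI (adjusted p = 0.010) and -0.16 ± 0.11 in female SNI (adjusted p = 0.35). Without female sham ACC replicate 1, the library with choroid plexus RNA, the female sham value of Igf2 was -0.72 and still passed (adjusted p = 0.00053). Igfbp2 lay between 23.6 and 30.9 CPM in all mPFC libraries and between 23.9 and 52.1 CPM in the ACC libraries, with the highest value in that same library. Its mean log2 fold change over the 4 pairs was -0.19 ± 0.09 (adjusted p = 0.11), close to the threshold, and it passed when any 1 of 6 libraries was left out.

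The 2 carriers parted. Slc22a6 (OAT1) was at 10.5, 7.74 and 8.72 CPM in female sham ACC against 4.88, 6.26 and 5.82 CPM in female sham mPFC, and at 8.60 ± 3.74 CPM (SD, n = 3, lowest 4.60) in male sham ACC against 4.24, 3.65 and 3.66 CPM in male sham mPFC. The groups did not overlap in either sex, and the log2 fold changes were -0.66 ± 0.14 (adjusted p = 0.0093) and -1.15 ± 0.27 (adjusted p = 0.020). The male sham call of Slc22a6 was lost without male sham mPFC replicate 2 (adjusted p = 0.11). In male SNI the value was -0.75 ± 0.17 (adjusted p = 0.0091). Slc6a13 (GAT2) was at 8.49, 7.48 and 9.16 CPM in female sham mPFC and 12.1, 6.49 and 9.88 CPM in female sham ACC, with overlapping groups. In female SNI it was higher in the mPFC, at 11.4, 9.43 and 12.8 CPM, than in the ACC, at 7.80, 7.74 and 7.62 CPM, a log2 fold change of 0.54 ± 0.11 (adjusted p = 0.0046). With all libraries no other member was called in female SNI. Leaving out 1 mPFC library of that comparison added a call, Ogn lower without replicate 1, Aldh1a2 higher without replicate 2 and Igf2 lower without replicate 3. In male sham and male SNI the values of Slc6a13 were -0.17 ± 0.16 and -0.29 ± 0.17, and the mean over the 4 pairs was -0.03 ± 0.10 (adjusted p = 0.85).

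Aldh1a2 and Islr had differences of intermediate size. Aldh1a2 stood at 14.1, 8.91 and 10.8 CPM in female sham ACC and 9.85, 7.15 and 13.4 CPM in male sham ACC, above the 5.75, 7.37 and 8.38 CPM of female sham mPFC and the 5.56, 5.25 and 4.37 CPM of male sham mPFC. Its log2 fold change was -0.64 ± 0.17 in female sham (adjusted p = 0.025), -0.99 ± 0.20 in male sham (adjusted p = 0.0085) and -0.61 ± 0.17 in male SNI (adjusted p = 0.029). In female SNI Aldh1a2 was 0.24 ± 0.13 (adjusted p = 0.23). Islr had -0.58 ± 0.17 in female sham (adjusted p = 0.035), -0.72 ± 0.17 in male sham (adjusted p = 0.020) and -0.44 ± 0.14 in male SNI (adjusted p = 0.044), and 0.03 ± 0.11 in female SNI, which was not. Without female sham mPFC replicate 1 the female sham call of Islr was lost (adjusted p = 0.12), and without male SNI mPFC replicate 1 the male SNI call of Aldh1a2 was (adjusted p = 0.10). The Islr call in male SNI was lost when any of 3 libraries was left out (male SNI mPFC replicate 1 or 3, or male SNI ACC replicate 2), with adjusted p of 0.11, 0.13 and 0.15.

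Counted by pair of groups, 8 members were lower in the mPFC of female sham mice (background 14.5%), 6 in male sham (background 6.7%), 6 in male SNI (background 10.6%) and 0 in female SNI (background 13.9%), where 1 was higher (background 13.7%). With all libraries, no member had a lower mPFC level in female SNI at an unadjusted p under 0.05, and DESeq2 called 1 member, Slc6a13, which was higher. The count of 0 lower became 1 without mPFC replicate 1 (Ogn) or replicate 3 (Igf2), and 3 without the filter on low counts (Ogn, Igf2 and Fmod), where 16.6%, 12.4% and 9.43% of all genes were called lower. The 3 libraries of the mPFC lay entirely below those of the ACC for 8 members in female sham (background 20%), 6 in male sham (background 13.9%) and 6 in male SNI (background 16.6%). This was read on CPM scaled over all 24 libraries before the filter on low counts. The CPM printed here were scaled over the same libraries after that filter, and on these Igf2 and Aldh1a2 overlapped slightly in male SNI. Leaving out female sham ACC replicate 1 kept the same 8 members called in female sham, with a median log2 fold change of -0.50 in place of -0.65.

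**Figure D2:**
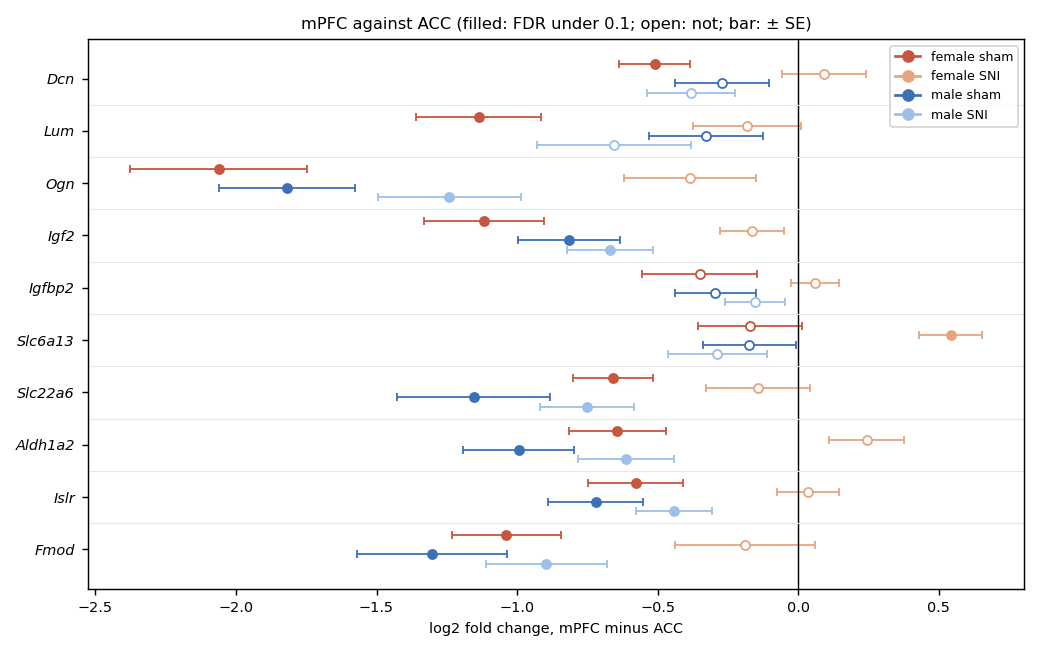
Log2 fold change (mPFC minus ACC, x axis) of each member in the 4 pairs of groups, with bars of ± SE and filled points for an FDR under 0.1. Points of female sham, male sham and male SNI lie to the left of 0 for all 10 members, from -0.16 (Igfbp2, male SNI) to -2.06 (Ogn, female sham), while those of female SNI scatter around 0.

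The next question was the response to SNI within each region and sex. No member was called in any of the 4 comparisons by edgeR. The background was 0.024% of all genes in female ACC, 0.00592% in female mPFC, 0.494% in male mPFC and 0.00599% in male ACC. The study, which also used edgeR at this threshold, reported more called genes in each of the 4 comparisons. It named Dcn among the genes most significantly lowered in the female ACC. The source of this difference from the study was not tested. In the female ACC all 10 members had a lower value after SNI, from -0.24 (Slc22a6) to -0.72 (Igf2). Of these, 8 had an unadjusted p under 0.05 (background 3.57% of all genes in that direction). DESeq2 called 1, Dcn, and the background share in DESeq2 is not given here. The 3 SNI libraries lay entirely below the 3 sham libraries for 5 members, Dcn, Ogn, Igf2, Aldh1a2 and Fmod (background 5.44%).

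Dcn was the member with the smallest p in the female ACC. Its level was 12.2, 9.80 and 12.4 CPM after sham and 7.37, 6.61 and 8.60 CPM after SNI, so that the groups did not overlap. The log2 fold change was -0.62 ± 0.12 (unadjusted p = 0.00022, adjusted p = 0.31 in edgeR). The adjusted p of Dcn was 0.024 in DESeq2, and without female sham ACC replicate 2 it was 0.047 in edgeR, where 0.423% of all genes were called lower. Igf2 had -0.72 ± 0.20 (adjusted p = 0.57), Aldh1a2 -0.52 ± 0.15 (0.57), Ogn -0.49 ± 0.15 (0.62) and Fmod -0.39 ± 0.14 (0.64). The sham group holds the library with choroid plexus RNA, and without it these 5 values were -0.57 for Dcn, -0.32 for Igf2, -0.33 for Aldh1a2, -0.28 for Ogn and -0.16 for Fmod. In that fit 5 members had a lower value at an unadjusted p under 0.05 (background 2.54%), and the median of the 10 members was -0.22 in place of -0.46. The summed level of the 31 further leptomeningeal genes was 487, 378 and 414 CPM in the sham libraries and 359, 358 and 358 CPM in the SNI libraries.

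In the female mPFC the direction was the opposite for most members. Ogn was at 1.18, 1.96 and 4.04 CPM after sham and at 7.16, 2.91 and 6.34 CPM after SNI, with overlapping groups. Its log2 fold change was 1.20 ± 0.38 (unadjusted p = 0.0076, adjusted p = 0.40). Slc6a13 was at 8.49, 7.48 and 9.16 CPM after sham and 11.4, 9.43 and 12.8 CPM after SNI, without overlap. This amounts to a log2 fold change of 0.42 ± 0.13 (unadjusted p = 0.0059, adjusted p = 0.40). Together with Aldh1a2 (0.38 ± 0.16), these were the 3 members with a higher value at an unadjusted p under 0.05 (background 6.71%). DESeq2 called 0 members here. Without female sham mPFC replicate 3, 3 members were called higher by edgeR, among them Slc6a13 (adjusted p = 0.051), but so were 8.29% of all genes. That library stood apart from its group over all genes (chi-square per gene of 12.8 and 12.5, against 4.08 between replicates 1 and 2). The members' median was 0.33, against -0.0034 for all genes. Female SNI mPFC replicates 1 and 3 had higher summed member levels (141 and 164 CPM) than replicate 2 (107 CPM), the latter just below the 108 to 125 CPM of the sham libraries.

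In the mPFC of male mice 2 members had an unadjusted p under 0.05 (background 11.2%), Dcn at -0.36 ± 0.13 (unadjusted p = 0.014, adjusted p = 0.30) and Igfbp2 at 0.18 ± 0.08, and the median was 0.10. Dcn there stood at 6.41 to 7.84 CPM after sham (mean 7.08 ± 0.717, SD, n = 3) and at 6.24, 4.63 and 5.54 CPM after SNI, which did not overlap. In the male ACC 1 member, Ogn at -0.46 ± 0.19, had an unadjusted p under 0.05 (background 2.72% in that direction), and the median was -0.22. That number of members changed when single libraries were left out, as given in the last section. DESeq2 called 0 members in either male comparison. Averaged over both sexes, edgeR and DESeq2 called 0 members in the mPFC (background 0.00567% of all genes in edgeR) and 0 in the ACC (background 0.0174%). At an unadjusted p under 0.05 there were 2 higher in the mPFC, Ogn and Aldh1a2 (background 4.36%), and 4 lower in the ACC, Dcn, Ogn, Igf2 and Aldh1a2 (background 3.11%). Without female sham ACC replicate 1 the latter were 2, Dcn and Ogn (background 2.5%).

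**Figure D3:**
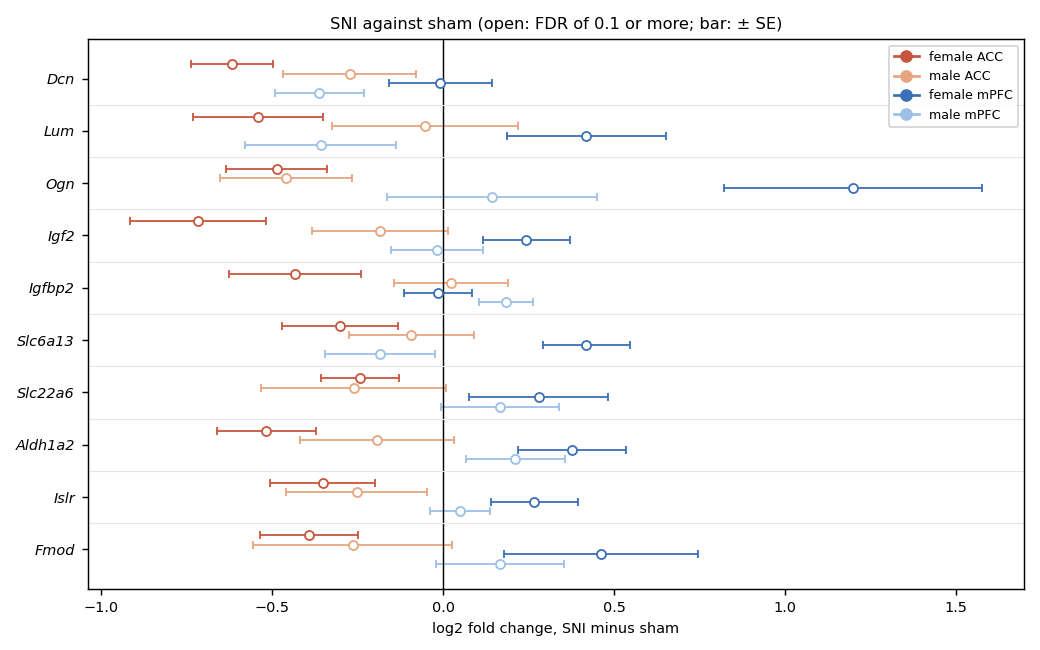
Log2 fold change (SNI minus sham, x axis) of each member in the 4 combinations of sex and region, with bars of ± SE. All points are open because no member passed an FDR of 0.1. The female ACC values lie between -0.72 and -0.24 and the female mPFC values between -0.02 and 1.20.

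Whether the response to SNI differs between regions or sexes was tested with interaction terms. In females, the response in the mPFC minus that in the ACC was above 0 for all 10 members, from 0.41 (Igfbp2) to 1.68 (Ogn), with a median of 0.79. At an unadjusted p under 0.05 there were 8 members (background 5.56% in that direction), all but Igfbp2 and Slc22a6. The largest were Ogn at 1.68 ± 0.46 (unadjusted p = 0.0020), Igf2 at 0.96 ± 0.29, Lum at 0.95 ± 0.30 and Aldh1a2 at 0.89 ± 0.24 (unadjusted p = 0.0022). None was called after adjustment over 17451 genes (smallest adjusted p of a member 0.43), where the background was 0%, and DESeq2 called 0. Calls did appear in fits that left out a library or the filter on low counts, as given in the last section. Without female sham ACC replicate 1 the median was 0.56 and 6 members had an unadjusted p under 0.05, against 4.87% of all genes in that direction. This term shares its 4 groups with the comparisons above and restates them as 1 value per gene.

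In males the same term was between -0.32 (Lum) and 0.59 (Ogn), with 0 members called (background 0%) and 0 at an unadjusted p under 0.05 (background 3.19%) by edgeR, and 0 by DESeq2 at either threshold. The response in females minus that in males was not called for any member in the mPFC (background 0%) or the ACC (background 0%), by edgeR or DESeq2. In the mPFC Lum (0.78 ± 0.32) and Slc6a13 (0.61 ± 0.23) had an unadjusted p under 0.05 (background 8% in that direction), and in the ACC no member did (background 5.92%). The difference between the sexes in the regional effect of sham mice was called for 0 members by both tools (background 0.0115%), and 1, Lum, had an unadjusted p under 0.05 (background 7.29%).

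In sham mice the levels of females and males were also compared. No member was called in the mPFC (background 0.177%) or the ACC (background 0.0958%) by edgeR or DESeq2. In the mPFC 4 members were higher in females at an unadjusted p under 0.05 (background 5.13%). Of these Slc22a6, Aldh1a2 and Islr had log2 fold changes of 0.56 ± 0.14, 0.50 ± 0.15 and 0.26 ± 0.10 (adjusted p = 0.24, 0.33 and 0.40). The 4th was Igfbp2 at 0.19 ± 0.08. In the ACC 1 member, Dcn at 0.41 ± 0.17, was higher at that threshold (background 3.31%), and without female sham ACC replicate 1 there was none. Female and male libraries were deposited in separate tables, and sex and any difference in handling between these tables cannot be told apart.

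Libraries of the same group differed in most members at once. Summed over the 10 members, the level ran from 96.5 CPM (male sham mPFC replicate 3) to 274 CPM (female sham ACC replicate 1). The next highest was 224 CPM in male sham ACC replicate 3, a library with 16.1 CPM of choroid plexus markers. In that group 9 members were above the group mean in replicate 3 and 0 were in replicate 2, which had 123 CPM. Female SNI ACC was the most even group, with 139, 142 and 141 CPM. After subtracting each group's mean from the log2 CPM, the 45 pairs of members had a median Pearson r of 0.66 over the 24 libraries, with the highest between Slc22a6 and Fmod (r = 0.90, Spearman rho = 0.89). Without the 2 libraries farthest from the median of Slc22a6 this r was 0.89. Lum stood farthest from the others: its r with the other members had a median of -0.10 and ran from -0.23 (Islr) to 0.36. Dcn also followed less closely, with a median r of 0.42 (0.22 to 0.55). These values describe libraries that share dissection and depth, and no test was made of them.

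**Figure D4:**
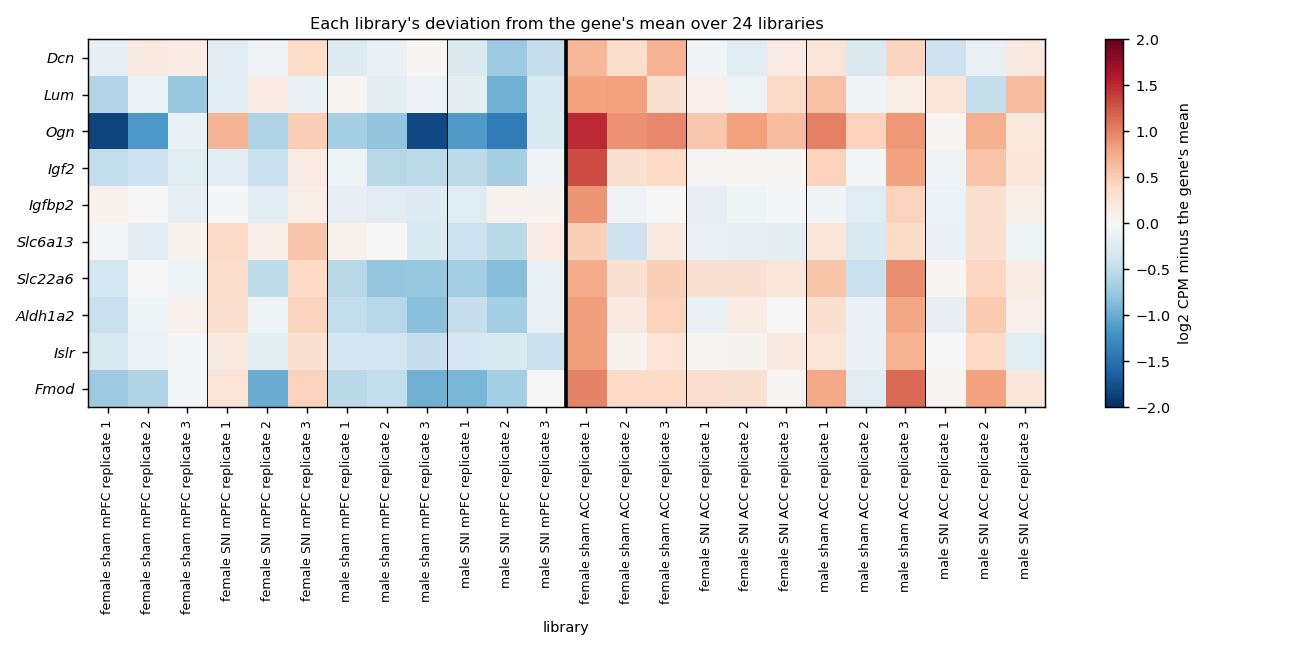
Deviation of log2 CPM from each gene's mean over the 24 libraries (colour, red above and blue below), with libraries on the x axis, members on the y axis and thin lines between groups. Female sham ACC replicate 1 is red for all 10 members, most mPFC columns of male mice are blue, and the thick line separates mPFC from ACC.

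The genes whose deviations were most like those of the members, measured as Pearson r with the mean of the members' standardised deviations over 24 libraries and 15433 genes, were led by Aebp1 (r = 0.97) and Ptgds (r = 0.95). Aebp1 encodes a collagen-binding extracellular matrix protein and Ptgds the prostaglandin D synthase that is abundant in leptomeninges. The next were Slc13a3 (r = 0.92), Slc13a4 (0.91), Col1a2 (0.91), Myof (0.91), Slc6a20a (0.91), Bmp7 (0.90), Foxc1 (0.88) and Cd74 (0.86). Leaving out the 2 libraries farthest from the median of that mean gave 0.84 to 0.95 for these 10 genes. All 10 were called lower in the mPFC over the 4 pairs (background 24.7%), with log2 fold changes from -0.23 (Col1a2) to -0.70 (Aebp1), a measure not used to choose them. Slc13a3, Slc13a4, Col1a2, Slc6a20a, Bmp7 and Foxc1 are also on the lists below and are counted there again.

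Other genes of the same cells and pathways were compared by region over the 4 pairs of groups. The lists were chosen with earlier results of these data known. Over all genes tested, 24.7% were called lower in the mPFC and 24.3% higher, and the counts of each list stand beside these shares. Of the 31 further leptomeningeal fibroblast genes, 27 were lower in the mPFC and 2 higher, with a median of -0.52. The smallest adjusted p values were those of Efemp1 (-0.65 ± 0.07) and Dpp4 (-0.85 ± 0.10) among the lower genes, and Zic1 (0.43 ± 0.12) and Cemip (0.11 ± 0.03) were the 2 higher ones. Larger differences, picked out after their values were seen, were those of the transcription factor Foxc2 (-1.45 ± 0.18), the cadherin Cdh1 (-1.34 ± 0.22) and the carrier Slc47a1 (-1.31 ± 0.26).

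The collagens of fibroblasts did not follow as a group. Of 14, 6 were lower and 3 higher in the mPFC, with a median of -0.11. Col15a1 (-0.66 ± 0.09) and Col3a1 (-0.88 ± 0.13) were lower, whereas Col6a1 (1.26 ± 0.08) and Col6a2 (0.73 ± 0.08) were higher, and the summed collagen level was 190 to 263 CPM in the mPFC and 146 to 237 CPM in the ACC. Of 12 other small leucine-rich proteoglycans, 8 could be tested, 4 were lower and 1 higher. The lower ones include Omd (-1.36 ± 0.25), Ecm2 (-0.34 ± 0.10) and Aspn (-0.36 ± 0.13, named after its value was seen), the neighbours of Ogn on chromosome 13, at 0.0765 to 1.47, 2.22 to 5.18 and 0.668 to 2.01 CPM. Podn (0.35 ± 0.09) was higher, and Kera, a neighbour of Lum and Dcn, never exceeded 2 counts in a library.

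Of 12 IGF ligands, receptors and binding proteins tested besides the members, 5 were lower in the mPFC and 4 higher. Igfbp5 (-0.46 ± 0.04) and Igf1 (-0.37 ± 0.05) were lower, and Igfbp3 (0.35 ± 0.05) and Igfbpl1 (3.61 ± 0.55, at no more than 34 counts) were higher. Of 16 genes of retinoic acid synthesis, breakdown and response, 7 were lower and 3 higher, with Aldh1a1 (-1.37 ± 0.09) and Rara (-0.16 ± 0.04) lower and Rxrg (1.33 ± 0.11) and Aldh1a3 (0.90 ± 0.08) higher. Of 15 other membrane carriers, 9 were lower and 2 higher, with Slco1a4 (-0.28 ± 0.04) lower and Slc22a4 (0.32 ± 0.06) and Slc22a3 (0.57 ± 0.16) higher. The carriers Slc13a4, Slc47a1 and Slc22a2 are also on the list of further leptomeningeal genes, as is Crabp2 of the retinoic acid list, so these lists overlap.

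Markers of other cells moved with the regional difference as well. In the mPFC 10 of 12 mural cell genes were lower and 1 higher (median -0.29), 12 of 13 endothelial genes lower (median -0.21) and 3 of 7 tested border macrophage genes lower (median -0.44). Astrocyte genes were lower for 9 of 10 (median -0.22) and oligodendrocyte genes for 8 of 10 (median -0.31), while 6 of 9 microglial genes were higher (median 0.12). Summed levels were 257 to 326 CPM in the mPFC and 308 to 386 CPM in the ACC for mural cells, while border macrophage markers had a median of 33.7 CPM in the mPFC and 37.5 CPM in the ACC. Of 9 choroid plexus genes tested 2 were lower and 0 higher (median -0.32). Without the library rich in them 1 was lower and 4 were higher (median 0.35), and 8 members were called lower. In that fit, cortical inhibitory neuron genes were lower for 6 of 8 and higher for 1 (median -0.14). Excitatory neuron genes were higher for 4 of 10 and lower for 2 (median 0.055), and ependymal genes higher for 3 of 7 (median 0.41). Keratinocyte genes were higher for 2 of 3 (median 0.60). Of 6 hepatocyte genes 1 was lower, and of 5 blood genes 0 were called. The part of the other cell types in the members' difference was not tested.

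**Figure D5:**
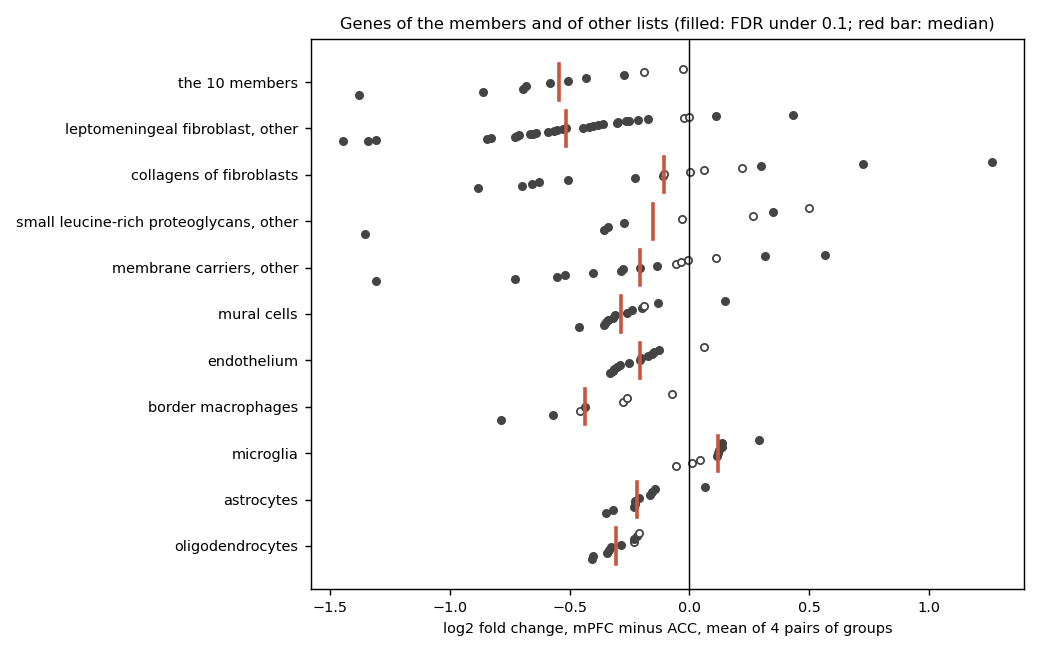
Log2 fold change (mPFC minus ACC, mean of 4 pairs of groups, x axis) of each gene for the 10 members and 10 other lists (y axis), filled for an FDR under 0.1, with a red bar at each list's median. The medians of the members (-0.54) and of the further leptomeningeal genes (-0.52) lie farthest to the left, and the collagens extend to both sides.

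After SNI the further leptomeningeal genes had 0 calls in females in either region. In the female ACC 29 of 31 had a value below 0 (median -0.29) and 15 an unadjusted p under 0.05, against 3.57% of all genes in that direction. In the female mPFC 27 of 31 had a value above 0 (median 0.25) and 5 an unadjusted p under 0.05, against 6.71% of all genes in that direction. Of the 14 collagens, 13 had a value below 0 in the female ACC, 7 of them at an unadjusted p under 0.05 (median -0.45), and 1, Col3a1, was called lower (-0.99, adjusted p = 0.067). In the female mPFC 9 of the 14 were below 0 (median -0.03). In the female ACC 5 of 6 tested choroid plexus genes had a value below 0 at an unadjusted p under 0.05 (median -3.00), and the sham group of that comparison holds the library rich in choroid plexus RNA. Also in the female ACC, all 7 tested border macrophage genes had a value below 0, 3 of them at that threshold (median -0.31), and their summed level was 37.7 to 46.6 CPM after sham and 31.7 to 35.5 CPM after SNI. Mural cell genes there had 9 of 12 below 0, 4 of them at that threshold (median -0.16), with Acta2 at -0.45 ± 0.12 and Tagln at -0.59 ± 0.15. The 5 blood genes were all below 0 there, 2 of them at that threshold (median -0.20). Without that library, female sham ACC replicate 1, the genes below 0 at an unadjusted p under 0.05 were 8 of the 31 leptomeningeal genes, 6 of the 14 collagens, 1 of 6 choroid plexus genes, 1 of 7 border macrophage genes, 3 of 12 mural cell genes and 1 of 5 blood genes, against 2.54% of all genes. Col3a1 was then at -0.90 and no longer called (adjusted p = 0.13). In the female mPFC, oligodendrocyte genes had 8 of 10 below 0 at that threshold (median -0.54), against 5.36% of all genes in that direction, with 0 called. Their summed level was 2993 to 3466 CPM after sham and 1126 to 2796 CPM after SNI (median 2575). The lowest SNI library thus stood far below the rest of its group. Border macrophage genes had 5 of 6 above 0 there (median 0.40), 1 of them, F13a1 (0.55), at an unadjusted p under 0.05, and the median of their summed level was 36.4 CPM after sham and 37.6 CPM after SNI, with overlapping groups. The part of these in the members' values was not tested.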

How the data were processed

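RNA of 24 pools was sequenced, and the authors trimmed reads with Trimmomatic (0.36), removed Rfam reads with Bowtie2 (2.33 as stated), aligned to GRCm38 with HISAT2 (2.1.0) and deposited the HTSeq (0.9.1) read counts per Ensembl gene, unnormalised. The annotation release, strand setting and treatment of shared exons are not given in the sources used here. The columns give sex, treatment and number, and the region was read from each table's name. Symbols and coordinates came from GENCODE mouse release 21, promoters from RefSeq.

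Counts were scaled by TMM, filtered with filterByExpr (minimum count 10, minimum total 15) and tested with the quasi-likelihood F-test of edgeR 4.0.16 (R 4.3.3, limma 3.58.1) in 18 comparisons, with Benjamini-Hochberg adjustment over all genes tested and an FDR threshold of 0.1, as in the study's methods. SE is the log2 fold change divided by the root of F. "Background" is the percentage of all genes tested that met the same criterion. An exact two-sided permutation test of 3 against 3 could not go below p = 0.1. Each library within a group is a separate pool of mice, and p-values measure the spread between pools. Whether an mPFC and an ACC library that share a number come from the same mice is not given in the sources used here. A fold change was printed with its error where a member was called or its groups did not overlap, with others for comparison, and for each list the 2 called genes of smallest adjusted p per direction, of which 1 carrier is not reported here. Log2 CPM used a prior count of 2. Likeness was computed over genes with at least 1 CPM in 3 libraries. Alternatives were DESeq2 1.42.0, RLE scaling, no filter, a replicate block and leaving out each library. The script was tested on simulated data. The members and lists were chosen with earlier results of these data known.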

Additional observations from a re-analysis of the deposited data

How the results depend on the processing

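No called difference of a member changed direction under any alternative run, and RLE scaling changed no number of members called. Without the filter on low counts, edgeR called 3 members for SNI in the female mPFC, 7 in the female ACC, 3 in the mPFC and 4 in the ACC over both sexes, 4 between regions in female SNI, 2 between sexes in the sham mPFC, 9 for the region by SNI term in females and 2 for the sex by SNI term in the mPFC, in place of 0, 0, 0, 0, 1, 0, 0 and 0. Of all genes, 2.19%, 1.38%, 1.92%, 0.431%, 17.4%, 1.58%, 2.16% and 2.79% were then called in either direction, in place of 0.00592%, 0.024%, 0.00567%, 0.0174%, 27.6%, 0.177%, 0% and 0%. Between regions it then called 9 in female sham, 7 in male sham, 9 in male SNI and 9 over the 4 pairs, in place of 8, 6, 6 and 8, where 9.51%, 5.58%, 7.11% and 13.1% of all genes were called lower, with Slc6a13 among those in male SNI. In 2 of these fits the prior degrees of freedom were checked, and they became infinite (8.21 and 7.84 with the filter), so that a gene's own spread between libraries had no weight. In the other fits the cause was not tested. DESeq2 called 1 member for SNI in the female ACC, Dcn. With the replicate block 1 member, again Dcn (adjusted p = 0.070), was called there, 8 between regions in male SNI (Dcn and Lum in addition) and 9 over the 4 pairs (Igfbp2 in addition), and the number of members called changed in no other comparison. The number of all genes called moved as well, in 12 of 18 comparisons with DESeq2 and in 8 with the block. These shares are not given here, so the added calls cannot be read against a background. The correlation of libraries sharing a number was -0.06 to 0.10 between regions and -0.10 to 0.15 otherwise. Libraries with different numbers had -0.12 to 0.16 and -0.16 to 0.20. With 3 libraries per group these ranges cannot decide whether a shared number means the same mice. The main fits between regions treated all libraries as independent. Leaving out each library in turn gave 0 to 3 members for SNI in the female mPFC and 0 to 4 in the female ACC (without female sham ACC replicate 2), 0 to 1 in the ACC of both sexes (without male sham ACC replicate 3), 0 to 2 between sexes in the sham mPFC, 0 to 5 for the region by SNI term in females and 0 to 2 for the sex by SNI term in the mPFC. Where the female sham mPFC enters these comparisons, the highest value came without its replicate 3. In the fits with these highest values, in the same order, 15.9%, 0.8%, 7.27%, 15.5%, 11.6% and 18.3% of all genes were called. Between regions the ranges were 7 to 8 in female sham, 5 to 8 in male sham (8 without male sham ACC replicate 2), 1 to 2 in female SNI (2 without any 1 of the mPFC libraries), 4 to 7 in male SNI (4 without male SNI mPFC replicate 1) and 8 to 9 over the 4 pairs, where 6.73% to 20.6%, 3.27% to 13.4%, 16.7% to 31.6% (either direction), 6.43% to 10.9% and 22.7% to 26.3% of all genes were called lower. Counts at an unadjusted p under 0.05 ranged from 2 to 7 for SNI in the female mPFC (7 without female SNI mPFC replicate 2), 5 to 9 in the female ACC and 0 to 5 in the male ACC (5 without male sham ACC replicate 2). At the highest of these, 6.91% of all genes were higher, 5.9% lower and 1.29% lower at that threshold. For Lum and Ogn, with as few as 33 and 31 counts in a library, counting error is the largest among the members.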
